A study of Mus musculus with 4 samples.

Results

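Rora, Maf, Sox13 and Batf encode 4 transcription factors of the interleukin-17-producing subset of invariant natural killer T (iNKT) cells, called NKT17. They were taken from the 46517 genes of the deposited table by symbol, and all 4 were found and passed the filter on low counts. RNA was sequenced from stage 1 iNKT cells of C57BL/6J mouse thymus, T cells with a semi-invariant receptor for lipids bound to CD1d. Prmt5 KO 1 and 2 were of genotype Prmt5 flox/D with Cd4-Cre, which deletes the floxed allele from the stage at which thymocytes express Cd4. Control 1 and 2 carry 1 shared label that names Prmt5 flox/D and Prmt5 flox/+ Cd4-Cre, without saying which library had which genotype. All cells were sorted as negative for CD24, NK1.1 and the factor T-bet, by the labels, which give no age. Nothing in the labels ties a library to a mouse of its own, so p-values here rest on spread that may be technical.

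iNKT cells split in the thymus into subsets named after the cytokines they make. RORα (Rora) is a nuclear receptor that binds DNA as a monomer, acts in interleukin-17-producing helper T cells and drives genes of the circadian clock. c-Maf (Maf) is a basic leucine zipper factor needed for NKT17 cells and for interleukin-17-producing gamma-delta T cells. SOX13 (Sox13) is an HMG-box factor of the gamma-delta T cell lineage, where it is needed for the interleukin-17-producing branch. BATF (Batf) is a small basic leucine zipper factor that pairs with JUN proteins and, at composite sites, with IRF4 or IRF8, and it is needed for interleukin-17 production by helper T cells.

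On mm10, Rora lies on chromosome 9, from 68653786 to 69388246 on the plus strand, with 22 exons and 6 transcripts in the deposited table. Maf lies on chromosome 8, from 115682942 to 115707794 on the minus strand, with 4 exons and 2 transcripts. Sox13 lies on chromosome 1, from 133382303 to 133424377 on the minus strand, with 23 exons and 5 transcripts. Batf lies on chromosome 12, from 85686669 to 85709087 on the plus strand, with 3 exons and 1 transcript. In GENCODE M21, the antisense gene Gm15655 lies inside Maf and Gm15511 inside Rora. Both had 0 exon reads in every library.

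To show the DNA before the genes discussed below, the bases upstream of both the RefSeq start and the gene start of the deposited table are given 5′ to 3′ for the 3 factors in the RefSeq promoter table (GRCm38.p6), Maf being the other. For Sox13 these are chr1:133424378-133424462 on the minus strand, for Rora chr9:68653536-68653785 on the plus strand and for Batf chr12:85686470-85686668 on the plus strand. Capitals would mark a motif match, and there was none.
Sox13: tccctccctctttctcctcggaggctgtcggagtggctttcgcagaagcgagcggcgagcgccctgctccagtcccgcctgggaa
Rora: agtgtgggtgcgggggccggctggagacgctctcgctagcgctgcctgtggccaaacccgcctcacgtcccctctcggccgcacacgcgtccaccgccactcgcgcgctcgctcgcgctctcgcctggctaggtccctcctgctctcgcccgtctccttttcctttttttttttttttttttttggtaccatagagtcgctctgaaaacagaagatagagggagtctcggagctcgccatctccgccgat
Batf: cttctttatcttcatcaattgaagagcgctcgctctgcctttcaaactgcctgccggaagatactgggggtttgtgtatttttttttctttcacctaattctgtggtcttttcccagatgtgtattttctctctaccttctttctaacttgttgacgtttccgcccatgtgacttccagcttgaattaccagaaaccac
The 250 bases before each RefSeq start were searched on both strands for 5 motifs, none of which contains another. TGANTCA, the AP-1 element read by BATF with JUN proteins, stood in 6.75% of 32851 mouse promoter windows of the same length. TGCTGA, a part of the Maf recognition element, stood in 16.1%, and AGGTCA, the ROR core site, in 14%. The SOX words ACAAAG and ACAATG stood in 16.5% and 10.7%. The windows of Rora, Sox13 and Batf held 0 matches, which says only that these letters are not there. Their GC contents were 61.2%, 72.4% and 46.4%.

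Depth was 13240293 and 5355378 exon reads in Prmt5 KO 1 and 2, against 5571860 and 4600799 in Control 1 and 2. Levels are given as CPM, exon reads set relative to the library total after TMM scaling, and 1 read was worth 0.0678 to 0.235 CPM. The labels could not be checked on the targeted gene. Prmt5 had 86.7 and 119 CPM in the libraries labelled Prmt5 KO, against 98.3 and 99.8 CPM in Control, a log2 fold change of 0.05 ± 0.32 (SE), and reads of single exons were not used here. Identity genes of iNKT cells were present in all libraries. Zbtb16, which encodes the iNKT factor PLZF, had 350.0 and 253 CPM in Prmt5 KO and 189 and 145 CPM in Control. Trav11, the segment of the invariant receptor chain, had 166 and 351 CPM in Prmt5 KO and 295 and 371 CPM in Control. Of 8 identity genes tested, the log2 fold change was negative for 6 and positive for 2. For 3 both Prmt5 KO libraries lay below both Control libraries and for 2 above (19% and 20.5% of all genes). Among the lower ones, Cd3e had 287 and 572 CPM in Prmt5 KO and 853 and 787 CPM in Control. Trac had 621 and 1259 CPM in Prmt5 KO and 1278 and 1314 CPM in Control. In bulk RNA, fewer NKT17 cells and less RNA of a factor per cell cannot be told apart.

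The 4 factors fell into 2 pairs. Sox13 was 4.46-fold and Maf 4.17-fold lower than Control in the libraries labelled Prmt5 KO, while Rora and Batf differed from Control by 1.20-fold and 1.38-fold. None of these differences passed edgeR's quasi-likelihood test after Benjamini-Hochberg adjustment over all 10775 genes, a test that 0.00928% of genes passed.

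**Figure D1:**
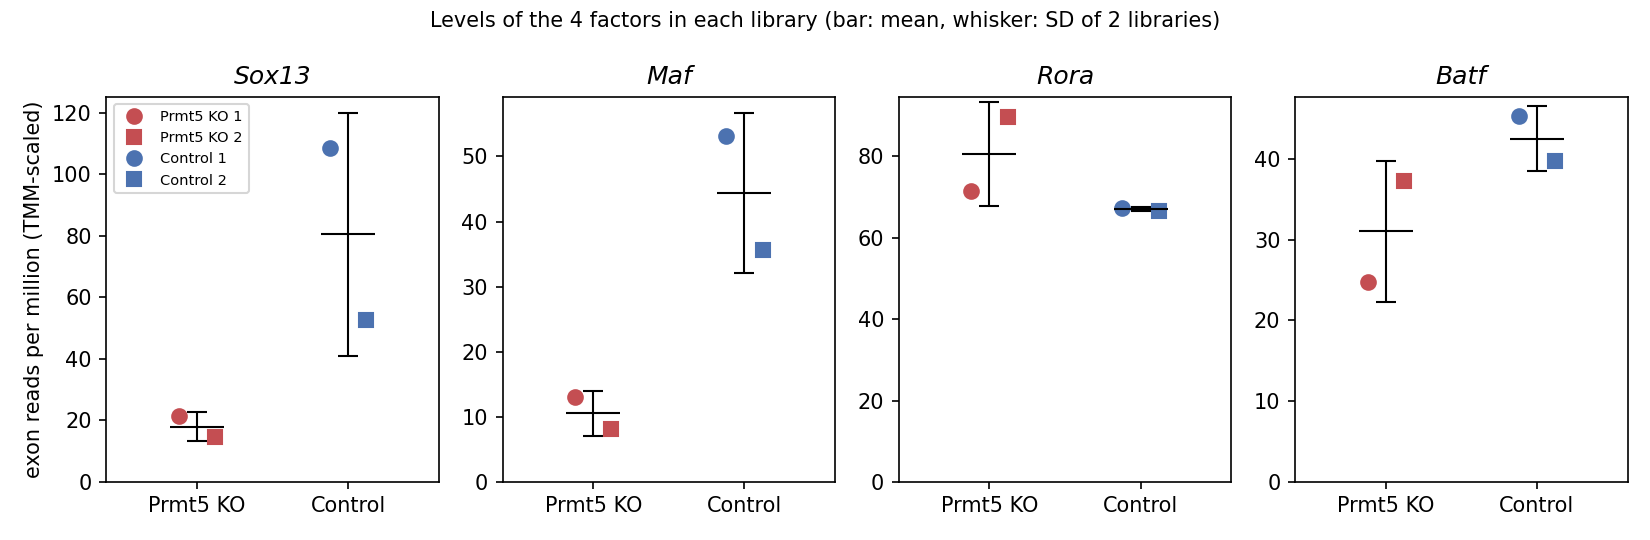
TMM-scaled exon CPM of Sox13, Maf, Rora and Batf, in 2 libraries labelled Prmt5 KO (red) and 2 Control libraries (blue), with the mean (bar) and SD (whisker) of each group. Both Prmt5 KO points lie below both Control points by at least 2.46 times for Sox13, 2.74 times for Maf and 1.07 times for Batf. For Rora both lie above both Control points, by at least 1.06 times.

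Sox13 had 315 and 74 exon reads in Prmt5 KO 1 and 2, against 612 and 224 in Control 1 and 2. That is 21.3 and 14.6 CPM in Prmt5 KO and 108 and 52.6 CPM in Control. Both Prmt5 KO libraries were below both Control libraries, and the lower Control library was still 2.46 times the higher Prmt5 KO library. The Control libraries differed between themselves by 2.06 times, the widest gap of the 4 factors within that group. The fitted level was 4.46-fold lower in Prmt5 KO (log2 fold change -2.16 ± 0.47 SE, 95% interval -3.22 to -1.09, adjusted p = 0.181 by edgeR's quasi-likelihood test). Sox13 ranked 81 of 10775 genes by p. By DESeq2 on the same counts the adjusted p was 0.00422 and by the edgeR exact test 0.0045, tools that called 1.56% and 1.89% of genes. By limma-voom, which called 0.121% of genes, it was 0.167. Without Control 1 the log2 fold change was -1.51, a difference smaller by more than 1.5 times on the linear scale.

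Maf had 192 and 41 exon reads in Prmt5 KO 1 and 2, against 300 and 152 in Control 1 and 2. In CPM these are 13.0 and 8.07 in Prmt5 KO, and 53.1 and 35.7 in Control. The groups did not overlap, and the lower Control library was 2.74 times the higher Prmt5 KO library. The fitted level was 4.17-fold lower in Prmt5 KO (log2 fold change -2.06 ± 0.49 SE, 95% interval -3.18 to -0.94, adjusted p = 0.229 by edgeR's quasi-likelihood test). It ranked 114 by p. DESeq2 gave an adjusted p of 0.0299, the edgeR exact test 0.020 and limma-voom 0.223. Part of the exon reads of Maf did not map uniquely. Unique reads were 87.0% and 82.9% in Prmt5 KO and 83.7% and 92.8% in Control, and with them alone the log2 fold change was -2.10.

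Rora had 1054 and 455 exon reads in Prmt5 KO, against 380 and 284 in Control. Scaled for depth, these are 71.4 and 89.6 CPM in Prmt5 KO and 67.3 and 66.7 CPM in Control. Both Prmt5 KO libraries were above both Control libraries, but Prmt5 KO 1 by only 1.06 times. Its log2 fold change was 0.26 ± 0.33 (SE), with a 95% interval of -0.48 to 1.00 and an adjusted p of 0.915 by edgeR's quasi-likelihood test. The interval does not reach down to the values of Sox13 and Maf.

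Batf had 366 and 189 exon reads in Prmt5 KO, against 256 and 169 in Control. Levels were 24.8 and 37.2 CPM in Prmt5 KO and 45.3 and 39.7 CPM in Control. Prmt5 KO 2 was nearly level with Control 2, which was 1.07 times higher. The log2 fold change was -0.46 ± 0.42 (SE), with a 95% interval of -1.40 to 0.48 and an adjusted p of 0.851 by edgeR's quasi-likelihood test. The test did not separate the groups, and the interval spans lower as well as higher levels.

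Counted together, 3 factors were lower and 1 higher without overlap between groups, where 39.5% of the 10775 genes did not overlap in either direction (19% lower and 20.5% higher). At an unadjusted p under 0.05 stood 2 of the 4, both lower, beside 8.58% of all genes (3.95% lower and 4.62% higher). Fewer than 1 in 50 genes had a more negative log2 fold change than Maf (1.72%) or Sox13 (1.54%). For Batf that share was 21.5%, and 32.5% of genes had a more positive value than Rora. The median over the 4 factors was -1.26, beside -0.00028 over all genes tested. The 4 factors were chosen with earlier results of these data known, so these shares describe them and are no test of the set.

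**Figure D2:**
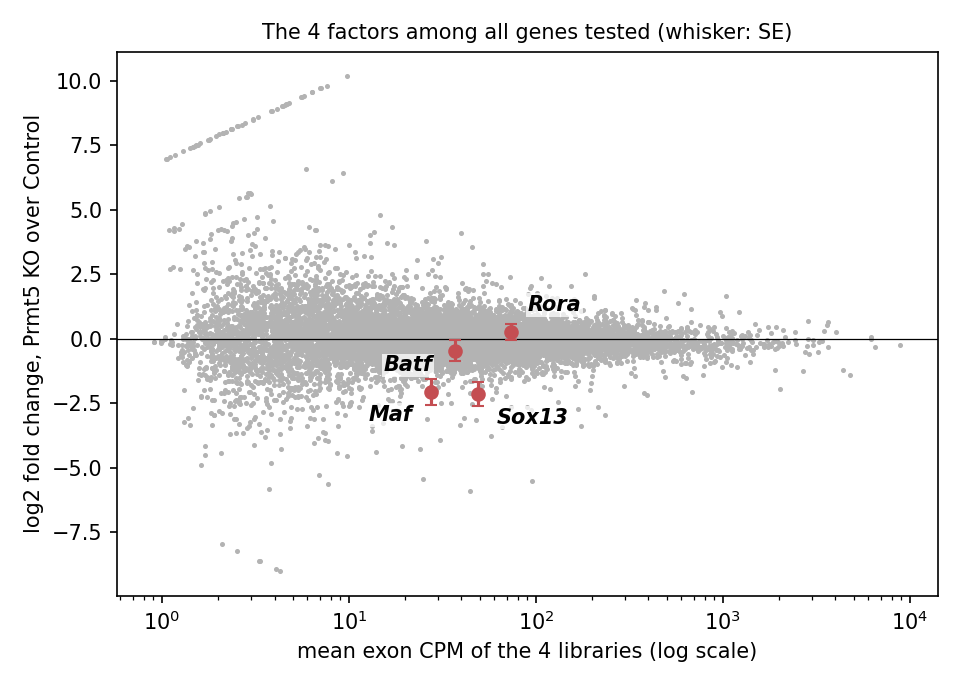
Log2 fold change (Prmt5 KO over Control) against the mean exon CPM of the 4 libraries (log axis) for all genes tested in grey, with the 4 factors in red and their SE as whiskers. Sox13 and Maf, at -2.16 and -2.06, lie below most genes of their level, while Batf and Rora, at -0.46 and 0.26, lie among them.

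Levels can be set side by side between factors only per length of exon. Exon length is that of all annotated exons of a gene together, 13071 bases for Rora, 8241 for Maf, 4312 for Sox13 and 955 for Batf, so genes with unused exons are understated. In RPKM, the TMM-scaled CPM divided by exon length in kilobases, Batf was highest in Prmt5 KO, at 32.5 ± 9.18 RPKM, against 44.5 ± 4.19 RPKM in Control (SD, n = 2 each, as for the values that follow). Sox13 was at 4.17 ± 1.11 RPKM in Prmt5 KO and 18.7 ± 9.15 RPKM in Control. Rora was at 6.16 ± 0.982 RPKM in Prmt5 KO and 5.12 ± 0.0336 RPKM in Control. Maf was at 1.28 ± 0.424 RPKM in Prmt5 KO and 5.39 ± 1.5 RPKM in Control. In Prmt5 KO the order was therefore Batf, Rora, Sox13 and Maf, with 5.47 RPKM for Rora in Prmt5 KO 1 next to 4.95 RPKM for Sox13 there. In Control it was Batf and Sox13, then Maf and Rora, which did not differ beyond their spread.

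Ratios of reads within 1 library need no scaling between libraries, and are given for each pair of factors. Maf had 0.610 and 0.554 reads per Sox13 read in Prmt5 KO 1 and 2, against 0.490 and 0.679 in Control 1 and 2. This ratio overlapped between the groups, with a difference of 0.01 on the log2 scale. Rora had 5.49 and 11.1 reads per Maf read in Prmt5 KO, against 1.27 and 1.87 in Control. Rora had 3.35 and 6.15 reads per Sox13 read in Prmt5 KO, against 0.621 and 1.27 in Control. Set against Batf, Maf was at 0.525 and 0.217 in Prmt5 KO and at 1.17 and 0.899 in Control, and Sox13 at 0.861 and 0.392 in Prmt5 KO and at 2.39 and 1.33 in Control. The ratio of Rora to Batf was also higher, at 2.88 and 2.41 in Prmt5 KO and 1.48 and 1.68 in Control. The 5 ratios other than Maf to Sox13 did not overlap between groups, as did not 39.5% of single genes. The share over pairs of other genes was not taken. Ratios with Sox13 or Maf on 1 side also restate the levels given above. In the exact two-sided permutation test, each of these 5 had p = 0.333, the smallest that 2 libraries against 2 allow, and p = 0.40 after adjustment over the 6 pairs.

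**Figure D3:**
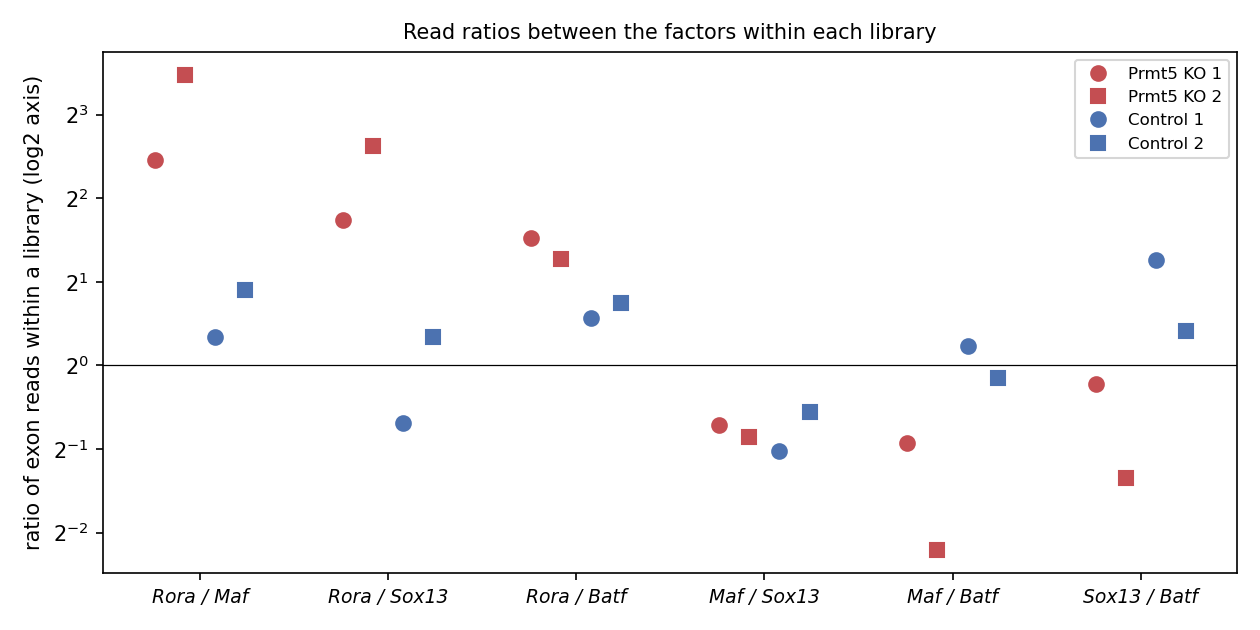
Ratio of exon reads between each pair of factors within each library, on a log2 axis, for Prmt5 KO (red) and Control (blue) libraries, with circles for library 1 and squares for library 2. The ratio of Maf to Sox13 lies between 0.490 and 0.679 in all 4 libraries, while the other 5 ratios do not overlap between the groups. Of single genes, 39.5% do not overlap.

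Genes were ranked by how closely their profile of log2 CPM over the 4 libraries, centred on its own mean, lay to that of each factor, among 9424 genes of at least 5 CPM. For Sox13 the nearest gene was Maf, at a distance of 0.34 on the log2 scale, followed by Ly6c2 at 0.49 and Antxr2 at 0.50. Ly6c2 encodes a Ly6C surface antigen of effector T cells, and Antxr2 an anthrax toxin receptor. For Maf, Ifrd2 (0.26) and H2-Ke6 (0.33) were nearer than Sox13. Ifrd2 had 14.6 and 7.68 CPM in Prmt5 KO and 51.7 and 42.0 CPM in Control. For Rora the nearest were Nfyc (0.019), Mgat1 (0.022) and Rnmt (0.030), and for Batf they were Fbxl8 (0.039), Bin1 (0.076) and Cdc42ep3 (0.088). Maf and Sox13 were at distances of 1.83 and 1.89 from Batf, and of 2.45 and 2.52 from Rora. These distances rest on 4 libraries and describe likeness only.

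Reads across exon junctions are a part of the exon reads. Sox13 had 130 and 25 junction reads in Prmt5 KO and 240 and 88 in Control. They made up 41.3% and 33.8% of its exon reads in Prmt5 KO and 39.2% and 39.3% in Control, with overlapping 95% exact binomial intervals, which cover counting error only. Maf had 2 and 1 junction reads in Prmt5 KO, against 9 and 16 in Control. As a share of its exon reads this was 1.04% (interval 0.126% to 3.71%) and 2.44% (0.0617% to 12.9%) in Prmt5 KO, and 3.0% (1.38% to 5.62%) and 10.5% (6.14% to 16.5%) in Control. Control 2 thus had the highest junction share of Maf, while Prmt5 KO 2, with 41 exon reads, was too shallow to be told from any other library. Junction shares of Rora were 39.8% and 30.1% in Prmt5 KO and 40.3% and 35.6% in Control. Those of Batf were 31.1% and 32.8% in Prmt5 KO and 34.0% and 30.8% in Control.

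Intron reads did not separate the groups for Rora. It had 375 and 38 unique intron reads in Prmt5 KO 1 and 2, against 63 and 61 in Control. These were 26.4% and 7.74% of its unique reads in Prmt5 KO, and 14.4% and 17.7% in Control, so that the 2 Prmt5 KO libraries lay on either side of Control. Over all genes, introns took 8.11% and 7.11% of unique reads in Prmt5 KO, and 4.25% and 5.86% in Control. Maf had 33 and 0 unique intron reads in Prmt5 KO and 16 and 23 in Control. For Sox13 these reads numbered 24 and 3 in Prmt5 KO and 20 and 22 in Control, and for Batf 46 and 2 in Prmt5 KO and 20 and 3 in Control. The change of intron reads relative to exon reads had log2 values of -1.08 ± 0.93 for Rora, -1.41 ± 1.75 for Maf, -0.95 ± 1.34 for Sox13 and -0.89 ± 1.81 for Batf (SE). Adjusted over 7400 genes by edgeR, p was 1 for each, and 0 genes passed. A difference between intron and exon reads was not detectable at these depths. In that test the intron and exon reads of a library were each scaled to their own total. The log2 values are therefore changes beyond that of the library-wide intron share, not of the plain intron share of a gene.

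Among the relatives and partners of each factor, no member of any list passed edgeR's quasi-likelihood test over all genes, so lists are described by unadjusted counts and medians. In the SOX family, 4 of 14 listed genes were tested. Sox4, a factor that acts beside Sox13 in gamma-delta thymocytes, was on the other side of Control from Sox13, with 113 and 123 CPM in Prmt5 KO and 40.4 and 63.4 CPM in Control (log2 fold change 1.19 ± 0.35 SE, adjusted p = 0.352 by edgeR). Sox5, which belongs to the same SOX subgroup as Sox13, had 157 and 4 reads in Prmt5 KO and 5 and 34 in Control, without a separation of the groups. Sox12 had 8.07 and 9.25 CPM in Prmt5 KO and 5.67 and 7.75 CPM in Control.

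Of 10 Maf and Bach family genes, 8 were tested, with 1 lower (Maf) and 1 higher at an unadjusted p under 0.05 (3.95% and 4.62% of all genes) and a median log2 fold change of 0.19. The higher one was Bach2, a repressor that restrains effector differentiation of T cells. Bach2 had 15.2 and 46.7 CPM in Prmt5 KO, against 5.31 and 9.86 CPM in Control (adjusted p = 0.423 by edgeR). Of the small Maf proteins, Mafg had 16.4 and 3.74 CPM in Prmt5 KO and 29.2 and 15.0 CPM in Control, with overlapping groups. Nfe2l1, a partner of small Maf proteins, had 123 and 101 CPM in Prmt5 KO and 81.1 and 43.2 CPM in Control. Mafa, another large Maf gene, had 0 reads in every library.

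The list of the BATF family with its IRF and AP-1 partners, Batf included, had 9 of 12 genes tested and a median of -0.46. At an unadjusted p under 0.05 in edgeR stood 0, beside 8.58% of all genes. DESeq2 and the edgeR exact test called 0 at an adjusted p under 0.05, beside 1.56% and 1.89% of all genes. With so few genes tested, 0 is not told apart from these shares. Irf4, a partner of BATF at composite sites, had 30.6 and 19.3 CPM in Prmt5 KO and 34.9 and 27.5 CPM in Control. Irf8 had 5.90 and 5.12 CPM in Prmt5 KO and 10.3 and 9.39 CPM in Control. Of the AP-1 genes, Junb had 158 and 61.2 CPM in Prmt5 KO and 280.5 and 156 CPM in Control. Fos had 221 and 46.5 CPM in Prmt5 KO and 327 and 111 CPM in Control, and both overlapped between groups. Batf3 had 22 and 11 reads in Prmt5 KO and 2 and 2 in Control, and was not tested.

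ROR, REV-ERB and clock genes had 9 tested members and a median of -0.05. At an unadjusted p under 0.05 in edgeR stood 0, beside 8.58% of all genes. None was called by DESeq2 or the edgeR exact test, which called 1.56% and 1.89% of all genes. Cry1, a repressor of the clock, had 73.5 and 80.9 CPM in Prmt5 KO and 55.4 and 39.7 CPM in Control. Arntl, the clock activator BMAL1 and a textbook target of RORα, had 81.9 and 38.0 CPM in Prmt5 KO and 35.2 and 43.0 CPM in Control, with overlapping groups. Per2 had 17.6 and 3.15 CPM in Prmt5 KO and 7.26 and 0.235 CPM in Control.

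Among other transcription factors of the interleukin-17 programme, the log2 fold change was positive for 12 of 13 tested, with a median of 0.40. At an unadjusted p under 0.05, 1 was higher, a share near the 4.62% of all genes, and 7 were higher without overlap, beside 20.5% of all genes. The 1 was Zbtb16 (log2 fold change 0.85 ± 0.34 SE, adjusted p = 0.500 by edgeR). Hif1a, the hypoxia factor that favours interleukin-17 production, had 274 and 211 CPM in Prmt5 KO and 149 and 151 CPM in Control. Runx1, a factor of T cell development, had 76.9 and 74.0 CPM in Prmt5 KO and 51.5 and 52.8 CPM in Control. Rel, an NF-κB subunit, had 15.9 and 19.9 CPM in Prmt5 KO and 9.92 and 6.10 CPM in Control.

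NKT17 receptors and surface genes, a list chosen with earlier results of these data known, mostly stood below Control, as Sox13 and Maf did. The log2 fold change was negative for 14 of the 16 tested (20 listed), with a median of -1.96. At an unadjusted p under 0.05, 8 were lower and 0 higher (3.95% and 4.62% of all genes). Without overlap, 10 were lower and 1 higher (19% and 20.5% of all genes). DESeq2 called 3 of them and the edgeR exact test 4, beside 1.56% and 1.89% of all genes. Blk, a Src-family kinase of interleukin-17-producing gamma-delta T cells, had 2.37 and 0 CPM in Prmt5 KO and 114 and 61.3 CPM in Control. Its Control libraries differed in the same direction as those of Sox13 and Maf, with Control 1 the higher. Aqp3, a water and glycerol channel, went the other way within Control, at 3.19 and 1.18 CPM in Prmt5 KO and 24.1 and 67.1 CPM in Control. Il23r, the interleukin-23 receptor chain, had 0 reads in both Prmt5 KO libraries against 29 and 35 reads in Control, so its mean level was at least 42.7-fold lower, with 3 counts in the group as the floor. Itgae, the integrin chain CD103, had 38.0 and 50.2 CPM in Prmt5 KO and 319 and 262 CPM in Control (adjusted p = 0.0561 by edgeR). Interleukin-17 genes themselves were near the limit of detection. Il17a had 1 and 7 reads in Prmt5 KO and 5 and 9 in Control, and Il17f 17 and 12 in Prmt5 KO and 0 and 0 in Control.

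**Figure D4:**
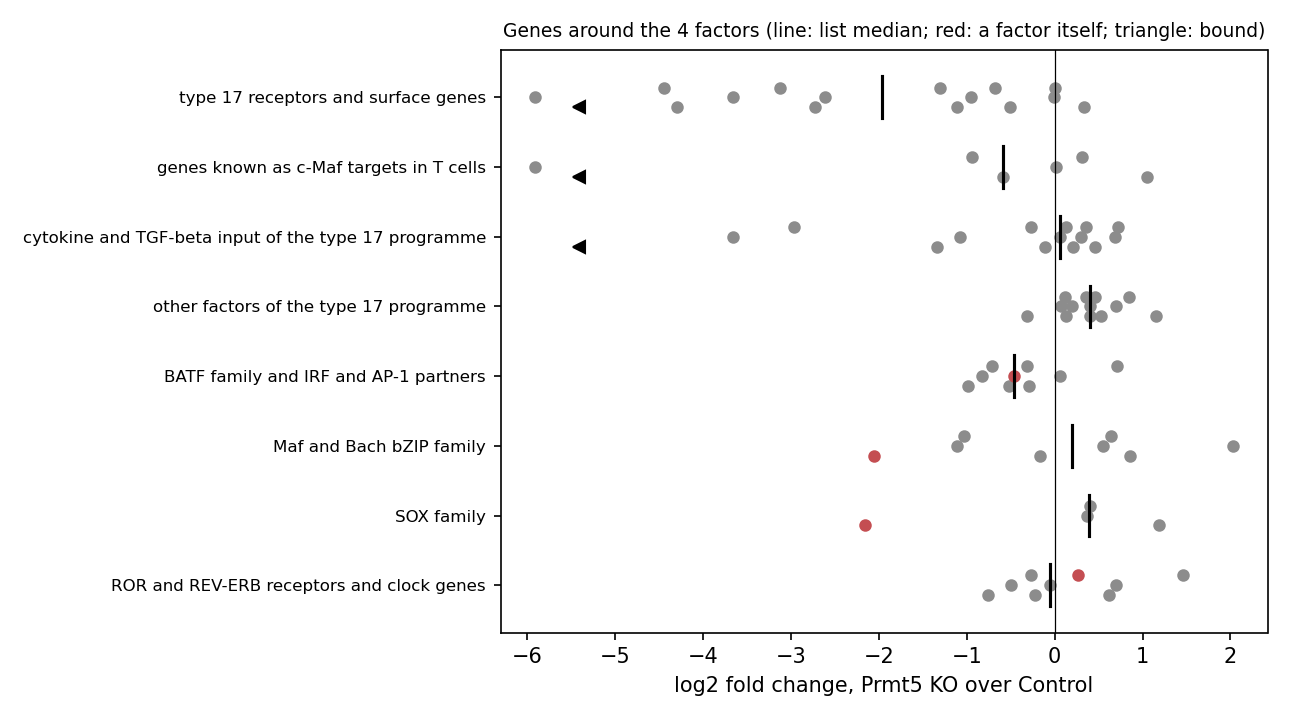
Log2 fold changes (Prmt5 KO over Control) of the tested genes in 8 lists around the 4 factors, with each list's median as a black line, the 4 factors in red and Il23r, at 0 reads in Prmt5 KO, as a triangle at its bound. Receptors and surface genes spread to the left with a median of -1.96, while 12 of 13 other transcription factors lie right of 0.

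Genes known as c-Maf targets in T cells were mixed. Of 7 tested, 3 were lower and 1 higher at an unadjusted p under 0.05 (3.95% and 4.62% of all genes), with a median of -0.59. The lower ones were Blk and Il23r, both already counted among the receptors and surface genes, and Icos, a costimulatory receptor at 521 and 646 CPM in Prmt5 KO and 1192 and 1053 CPM in Control. The higher one was Pdcd1, the inhibitory receptor PD-1, at 1050 and 1570 CPM in Prmt5 KO and 533 and 733 CPM in Control. Of 15 tested genes of the cytokine and TGF-beta input, 5 were lower and 0 higher at an unadjusted p under 0.05 (3.95% and 4.62% of all genes), with a median of 0.06. The log2 fold change was positive for 8 and negative for 7, and without overlap 5 were higher and 6 lower (20.5% and 19% of all genes). Il23r and Il1r1 are also among the receptors and surface genes. Il12rb1, the chain shared by the receptors for interleukin-12 and interleukin-23, had 58.6 and 82.3 CPM in Prmt5 KO and 148 and 148 CPM in Control. Tyk2, the kinase bound to that chain, had 49.7 and 25.6 CPM in Prmt5 KO and 131 and 59.9 CPM in Control. Il1r1, the interleukin-1 receptor, had 1.97 and 0 CPM in Prmt5 KO and 20.4 and 7.51 CPM in Control. Of the genes above Control, Il21r, the interleukin-21 receptor, had 95.1 and 94.7 CPM in Prmt5 KO and 73.1 and 44.4 CPM in Control.

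Since gamma-delta T cells also use Sox13 and Maf, their markers are given beside these 2 factors. Of 8 listed markers 6 were tested, 5 with a negative log2 fold change, and their summed level was 580.3 and 588 CPM in Prmt5 KO and 836 and 931 CPM in Control. Most of it came from the gamma constant genes, among them Tcrg-C2 with 196 and 209.7 CPM in Prmt5 KO and 301 and 368 CPM in Control. Tcrg-C1 had 162 and 155 CPM in Prmt5 KO, against 183 and 244 CPM in Control. The scavenger receptor genes 5830411N06Rik and Cd163l1, also counted among the receptors and surface genes, stood lower too. 5830411N06Rik had 11.3 and 0 CPM in Prmt5 KO and 45.7 and 27.5 CPM in Control (log2 fold change -2.61 ± 1.20 SE, adjusted p = 0.598 by edgeR), without overlap. Cd163l1 had 23.1 and 5.91 CPM in Prmt5 KO and 44.3 and 19.5 CPM in Control, with overlapping groups. Trdc, the delta constant gene that defines these cells, was the 1 tested marker with a positive log2 fold change (1.07 ± 1.53 SE). It had 42 and 12 reads in Prmt5 KO and 1 and 10 in Control. That is 2.85 and 2.36 CPM in Prmt5 KO and 0.177 and 2.35 CPM in Control, too few reads to show a direction. Of the ILC and NK cell markers, Ncr1 and Klrg1 had 0 reads in every library and 1 of 6 was tested. The list's summed level was 55.0 and 141 CPM in Prmt5 KO and 15.1 and 30.5 CPM in Control, nearly all from Fcer1g, a signalling chain shared with myeloid and mast cells. Fcer1g had 53.8 and 136 CPM in Prmt5 KO and 12.9 and 30.0 CPM in Control. B cell markers, of which Ms4a1 had 0 reads in every library, summed to 50.2 and 45.1 CPM in Prmt5 KO and 154 and 118 CPM in Control, through Ighm. Cd79b of this list went the other way, with 2 and 20 reads in Prmt5 KO and 0 and 0 in Control. Double-positive thymocyte markers summed to 193 and 162 CPM in Prmt5 KO and 96.7 and 130.3 CPM in Control, mostly from Themis and Rmnd5a. Themis had 97.7 and 81.7 CPM in Prmt5 KO and 39.5 and 43.2 CPM in Control, and Rmnd5a 72 and 76 CPM in Prmt5 KO and 51.9 and 73.5 CPM in Control. Cd8a had 117 and 21 reads in Prmt5 KO and 0 and 8 in Control, higher without overlap (log2 fold change 2.72 ± 1.59 SE). Cd8b1 had 202 and 2 reads in Prmt5 KO and 22 and 39 in Control, with overlapping groups. Dntt, at 19 and 1 reads in Prmt5 KO and 8 and 10 in Control, was not tested. Rag1, Rag2 and Ptcra, also of this list, had at most 1 read in any library. Tbx21, which encodes the T-bet protein gated out, had 13.4 and 5.71 CPM in Prmt5 KO and 107 and 64.6 CPM in Control. Cd24a, which encodes CD24, had 82 and 13 reads in Prmt5 KO and 0 and 0 reads in Control, with an adjusted p of 0.367 by edgeR's quasi-likelihood test and 0.0328 by its exact test. Klrb1c, which encodes NK1.1, had 2.91 and 13.8 CPM in Prmt5 KO and 36.8 and 13.1 CPM in Control, with overlapping groups. RNA of all 3 gate genes was thus present in at least 1 group. The part of other cells and of the gate in the levels of the 4 factors was not tested beyond these values.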

How the data were processed

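The authors deposited 1 table of 46517 genes with raw counts of reads per gene, exon, exon junction and intron in 4 libraries. Per the labels, cDNA was made with a SMART-seq v4 kit, and 1 sequencing run name is shared. The build mm10 and the tool edgeR appear in the submitters' processing notes. Mapper, annotation and any use of strand in counting: not given in the sources used here. Each p-value and fold change (a signed score) in the authors' deposited table rests on gene reads not scaled for depth.

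Total exon reads were filtered by filterByExpr, scaled by TMM and tested by the quasi-likelihood test of edgeR 4.0.16 (R 4.3.3) on group alone, Benjamini-Hochberg adjusted at a threshold of 0.05. DESeq2 1.42.0 and limma 3.58.1 were alternatives. SE was taken as the log2 fold change divided by the root of the F statistic. Depth was 4600799 to 13240293 exon reads. The intron test blocked on library and used unique reads of genes with 20 or more exon reads in each library and 10 or more intron reads in all. Scripts were tested on simulated data. Without molecular identifiers, PCR copies cannot be separated from molecules.

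Members and lists were chosen with earlier results of these data known. Named were all members, up to 4 members per list with the smallest p, and the 3 genes nearest each member in centred log2 CPM with a prior count of 2; genes so picked from lists given only as sums or counts are not all printed. Other genes with printed values (Tbx21, Trav11, Irf4, Il21r, Batf3, Mafa, Il17a, Il17f, Trdc, Cd24a, Klrb1c and markers at 0) were chosen after values were seen. The same holds for Rag1, Rag2, Ptcra, Dntt and Cd79b. Marker lists of mast cells, myeloid cells, thymic epithelium and conventional T cells had summed levels of 13.6 and 23.6, 63.8 and 156, 6.71 and 11.2, and 378 and 415 CPM in Prmt5 KO, against 2.12 and 0, 95.1 and 162, 3.72 and 0.235, and 260 and 309 CPM in Control. The NKT17 cytokine list had 3 of 8 genes tested.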

Additional observations from a re-analysis of the deposited data

How the results depend on the processing

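All 4 factors kept their direction under the 15 alternatives. The log2 fold change ranged from -2.59 to -1.51 for Sox13, -2.45 to -1.71 for Maf, 0.10 to 0.43 for Rora and -0.77 to -0.18 for Batf, the extremes coming from leaving out 1 library. Sox13 and Maf passed the threshold under 4 alternatives: at -2.14 and -2.04 with no filter on low counts, -2.17 and -2.07 by DESeq2, -2.16 and -2.06 by edgeR's exact method, and -2.11 and -2.08 with the replicate number as a block. Adjusted p ran from 0.000387 to 0.522 for Sox13 and from 0.00733 to 0.531 for Maf. Rora and Batf passed under none. Genes called higher and lower, 0 and 1 as reported, numbered 110 and 105 without a filter, 93 and 75 by DESeq2, 1 and 12 by limma-voom, 121 and 83 by edgeR's exact method, 5 and 9 with total gene reads, and 180 and 182 with the replicate block. With 1 library left out they ranged from 0 to 13 higher and from 1 to 24 lower. Such a fit assumes that the lone library varies like the other group.

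The labels number the libraries but do not say that a number marks a shared animal or day. The difference between libraries 1 and 2 in Prmt5 KO correlated with that in Control across 9425 genes at 0.205. With only 1 such difference per group, this value cannot tell whether the libraries were paired.

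The intron value of Batf turned to 0.83 without Control 1 and to 0.41 without Prmt5 KO 2, within a range of -2.84 to 0.83. With 1 library left out, it ranged from -8.51 to -0.19 for Maf, which had 0 unique intron reads in Prmt5 KO 2, from -2.0 to -0.23 for Rora and from -1.30 to -0.62 for Sox13, the lowest without Prmt5 KO 1. The highest were without Prmt5 KO 2 for Maf and Rora and without Control 2 for Sox13. With 1 library left out, list medians that changed sign were those of the SOX family (-0.97 to 1.07), Maf and Bach genes (-0.12 to 0.21), clock genes (-0.27 to 0.52), cytokine input (-0.13 to 0.24), cytokines (-0.43 to 0.48), iNKT identity (-0.72 to 0.16) and B cell markers (-1.44 to 2.83). The cause was not tested. For receptors and surface genes the median ranged from -2.48 to -1.49 with 1 library left out, and from -2.63 to -1.30 over all 15 alternatives.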

Other observations

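In the authors' deposited table, which uses gene reads without depth scaling, the fold change of Rora was 2.52 with a p-value of 0.344, and that of Batf was 1.35 with a p-value of 0.586. Scaled for depth, the log2 fold changes were 0.26 for Rora and -0.46 for Batf, of opposite sign for Batf. The authors' deposited table gave -1.83 for Maf and -2.10 for Sox13, its minus sign marking a lower level in Prmt5 KO. The deepest library, Prmt5 KO 1, had 13240293 exon reads.

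The number of Rora transcripts that the table lists as detected was 3 in both Prmt5 KO libraries and 2 in both Control libraries, of 6 annotated. For Sox13 it was 3 and 2 in Prmt5 KO and 3 and 2 in Control. These numbers can move with depth, which was not tested.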
